A study of Ammopiptanthus mongolicus with 6 samples.

Results

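In leaves of Ammopiptanthus mongolicus, 58 of 67955 assembled transcripts (unigenes) stood at 0.5 of the untreated level or less in every one of 5 libraries from stressed plants, 3 of drought and 2 of cold. These 58 members were chosen by their reads in the same 6 libraries. A member had at least 30 uniquely assigned reads in the control, and its reads over the library total, with counts under 3 set to 3, were at most 0.5 of the control's in all 5 stress libraries. Of the 17074 unigenes with at least 30 control reads, the members make up 0.34%. Without the drought 1 h condition 124 would pass. Since the fall defines the members, it is a description and not a finding. Every ratio rests on the same single control library, and a control that lay high by itself may set the whole pattern.

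Ammopiptanthus mongolicus is an evergreen broad-leaved shrub of the legume family that grows in Central Asian deserts, where it meets both drought and winter cold. Plants under water shortage or cold commonly lower the transcripts of growth and of other costly processes while others are raised, and the 2 stresses share part of their signalling, since both leave leaf cells short of usable water. A unigene is a transcript sequence assembled from reads without a genome. Unigenes that the assembler grouped by similarity carry the name of a cluster and a contig number (CL1491.Contig1), and those left single carry a unigene number. No names of genes come with the identifiers, so no member is given a function, the lists of genes fixed by name could not be applied, and the labelled leaf tissue could not be checked against marker genes.

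All plants were wild type and the labelled tissue was leaf mesophyll. The groups were a control with no treatment, drought stress for 1, 24 and 72 h, and cold stress for 1 and 72 h, with 1 library each. The sources used here do not say how the stresses were applied or at what time of day each group was sampled. With 1 library per group, differences have no replicate check, and p-values were not computed. In units of 1000 reads, library totals lay between 4300.0 and 4673.2. Intervals below are exact 95% intervals of a ratio of 2 read counts, they cover counting error only, and they compare libraries rather than conditions. Fewer cells that carry a transcript and less of it per cell cannot be told apart in such bulk RNA. A member is called lower or higher where its whole interval lies beyond 2-fold.

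The threshold at 0.5 did not fall in a gap of the distribution. Unigene37332_All (468 bases) lay just inside, with 35 control reads against 16, 10 and 13 in drought at 1, 24 and 72 h and 11 and 6 in cold at 1 and 72 h, and its least fall was 2.02-fold. CL8635.Contig1_All (1387 bases) was the next inside, with a least fall of 2.03-fold. Just outside lay Unigene3178_All (972 bases), at a highest ratio of 0.501, and Unigene25902_All (317 bases), at 0.504. A highest ratio between 0.45 and 0.5 was found for 19 members, and one between 0.5 and 0.55 for 23 other unigenes. The weakest of a member's 5 falls was under 2.5-fold for 36 of the 58 members and at least 3-fold for 10.

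**Figure D1:**
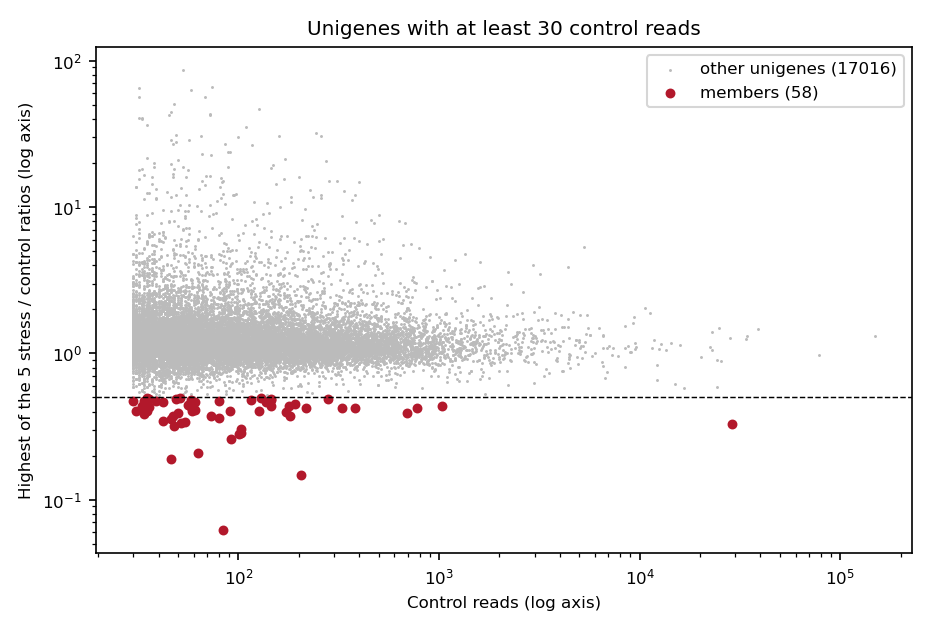
Each point is 1 of the unigenes with at least 30 control reads, with control reads on the x axis and the highest of its 5 stress-to-control ratios on the y axis, both on log axes. The 58 members (red) lie under the dashed line at 0.5, most of them close to it, and CL1491.Contig1_All stands alone at 28764 control reads.

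Members were found at every level of control reads. They were 26 of the 6089 unigenes with 30 to 59 control reads (0.427%), 9 of 3367 with 60 to 99 (0.267%), 17 of 4958 with 100 to 299 (0.343%) and 6 of 2660 with 300 or more (0.226%). The median member had 68 control reads and 36.8 RPKM (reads per kilobase of unigene and per 1000000 reads of the library), with a range of 3.95 to 2423 RPKM. In the stress libraries the median level of the members was 10.1 RPKM at drought 1 h, 6.38 at drought 24 h and 8.90 at drought 72 h. It was 10.7 RPKM at cold 1 h and 6.60 at cold 72 h.

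A fall is given here as the rate in the control over the rate in the stress library, and its size differed between libraries. The median fall, with counts under 3 set to 3, was 3.11-fold at drought 1 h, 4.60-fold at drought 24 h, 4.25-fold at drought 72 h, 2.75-fold at cold 1 h and 4.51-fold at cold 72 h. Both 1 h libraries thus held the shallower medians, and they also held the least fall of most members, drought 1 h for 24 and cold 1 h for 20. The rule used these same ratios, and no such count is given over the 17074 unigenes, so nothing is read from this order. A ratio of at most 0.5 was met by 2.16% of the 17074 unigenes at drought 1 h and 2.64% at cold 1 h. It was met by 5.8% at drought 24 h, 4.05% at drought 72 h and 19.1% at cold 72 h. The cold 72 h condition was therefore the easiest of the 5 to meet, and the median of these unigenes stood at a ratio of 0.805 there, against 0.967 to 1.01 in the other stress libraries. On the log2 scale that median was -0.31 at cold 72 h with library totals and -0.03 with trimmed-mean (TMM) factors. With TMM factors 48 of the 58 members stood at 0.5 of the control or less at cold 72 h, with a median over all 58 of 3.71-fold below it.

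By the interval, 27 members were called lower at drought 1 h, beside 0.404% of the 17074 unigenes. At drought 24 h 40 members were called, beside 1.71%, and at drought 72 h 40, beside 1.36%. At cold 1 h 21 were called, beside 0.615%, and at cold 72 h 37, beside 7.05%. All 13 unigenes called lower in all 5 libraries (0.0761%) are members. Of the rest, 14 members were called in 4 libraries, 8 in 3, 3 in 2, 14 in 1 and 6 in none. The rule used these contrasts, so nothing is read from the members' share against the background.

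**Figure D2:**
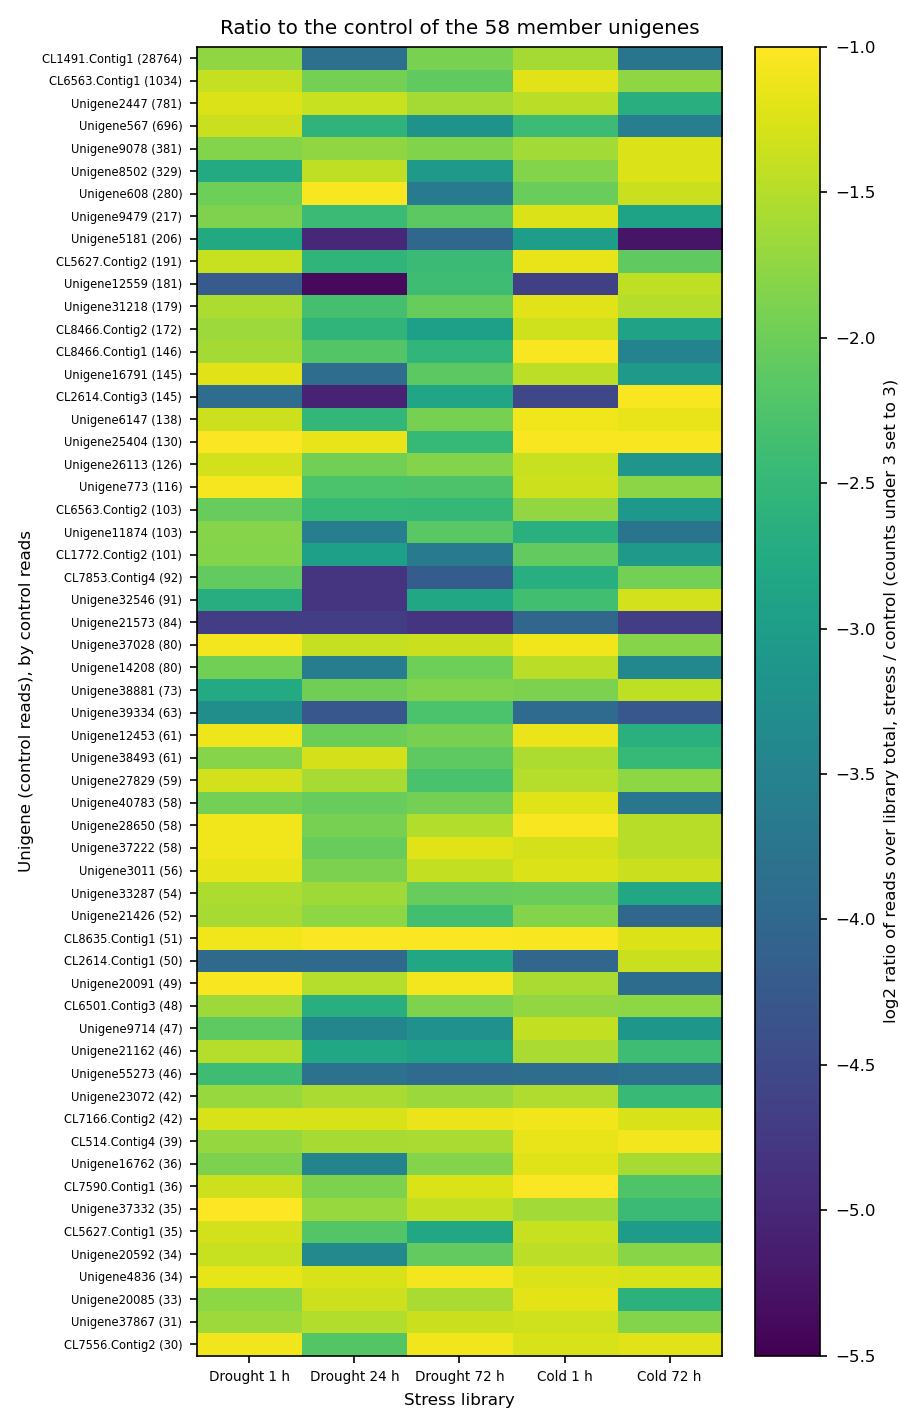
Rows are the 58 members ordered by control reads (in parentheses), columns are the 5 stress libraries, and colour is the log2 ratio of reads over library total to the control, with counts under 3 set to 3. The darkest cells belong to a few members such as Unigene5181_All, Unigene12559_All, CL2614.Contig3_All and Unigene21573_All, and both 1 h columns are paler for most rows.

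The most abundant member was CL1491.Contig1_All (2540 bases). It had 28764 control reads, 7904, 1857 and 7608 in drought at 1, 24 and 72 h, and 9143 and 1977 in cold at 1 and 72 h. The control was the highest library, and drought 24 h and cold 72 h were the lowest. Its level was 2423 RPKM in the control, where it ranked 22 by RPKM and 6 by reads among all unigenes. At drought 24 h it stood at 170 RPKM and ranked 599, and at cold 72 h at 181 RPKM and ranked 702. The fall was 3.35-fold (3.27 to 3.44) at drought 1 h, 14.3-fold (13.6 to 14.9) at drought 24 h and 3.75-fold (3.66 to 3.85) at drought 72 h. In cold it was 3.04-fold (2.97 to 3.11) at 1 h and 13.4-fold (12.8 to 14) at 72 h. Its reads covered between 53.1 and 53.8% of its length in every library, so the RPKM averages over bases without reads in all of them alike.

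This 1 unigene carried most of the members' reads. The 58 members took 0.781% of the control's reads (exact 95% binomial interval 0.773 to 0.789) and 0.237% at drought 1 h, 0.0823% at drought 24 h, 0.200% at drought 72 h, 0.257% at cold 1 h and 0.0859% at cold 72 h. Without CL1491.Contig1_All, an exclusion chosen after seeing the data, the other 57 took 0.166% of the control's reads. They took 0.0537, 0.0391 and 0.0356% in drought at 1, 24 and 72 h, and 0.0540 and 0.0399% in cold at 1 and 72 h. The partial return at drought 72 h in the sum over all members was that of CL1491.Contig1_All, since the share of the others was not higher at 72 h than at 24 h.

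CL6563.Contig1_All (604 bases) was the second by control RPKM. It had 1034 control reads, 364, 249 and 240 in drought and 435 and 282 in cold, each in order of time. The 5 stress libraries lay together between 85.6 and 160 RPKM, under 366 RPKM in the control. The fall ran from 2.29-fold (2.05 to 2.57) at cold 1 h to 4.28-fold (3.71 to 4.94) at drought 72 h.

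Of the 6 members with at least 300 control reads, 4 were called lower in all 5 libraries, and Unigene9078_All and Unigene8502_All were called in 4. Beside CL1491.Contig1_All and CL6563.Contig1_All the former were Unigene567_All and Unigene2447_All. Unigene567_All (609 bases) had 696 control reads, 251, 108 and 75 in drought at 1, 24 and 72 h, and 126 and 54 in cold at 1 and 72 h. Its reads were lower at each later time within both stresses, and its fall reached 9.21-fold (7.25 to 11.9) at drought 72 h and 11.9-fold (8.99 to 16.0) at cold 72 h. Unigene2447_All (890 bases), named after its values were seen, had 781 control reads and 304, 275, 254 and 274 in drought at 1, 24 and 72 h and cold at 1 h. Those 4 libraries lay close together, and cold 72 h was lower with 112 reads.

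No member had 0 reads in all 5 stress libraries, and 5 had 0 reads in at least 1. Unigene21573_All (285 bases) came nearest to absence. It had 84 control reads, 0 in each drought library, 5 at cold 1 h and 0 at cold 72 h. Against a floor of 3 reads per library it was at least 25.8-fold lower at drought 1 h and 24 h and at cold 72 h, and at least 27.8-fold lower at drought 72 h. The counting interval of these ratios began at 20.5-fold and 22.1-fold. At cold 1 h, the only stress library with its reads, the fall was 16.2-fold (6.68 to 51.2).

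Unigene55273_All (741 bases) had 46 control reads, 8 at drought 1 h, 3 at cold 1 h and 0 at drought 24 h, drought 72 h and cold 72 h. Reads were thus left in both 1 h libraries and in no later one. At drought 1 h it was 5.30-fold lower (2.48 to 13.0) and at cold 1 h 14.8-fold lower (4.76 to 74.4). At drought 24 h and cold 72 h it was at least 14.1-fold lower against the floor, and at drought 72 h at least 15.2-fold lower. Unigene39334_All (289 bases), also 1 of the 5, had 63 control reads, 6, 2 and 13 in drought and 4 and 0 in cold. Beside these members only Unigene5181_All stood at 0.25 of the control or less in all 5 libraries, which makes 4 such members.

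Unigene5181_All (310 bases) had 206 control reads, 28, 6 and 13 in drought at 1, 24 and 72 h, and 25 and 5 in cold at 1 and 72 h. From 142 RPKM in the control it stood at 21.0 RPKM at drought 1 h and 17.9 at cold 1 h, and at 9.04 RPKM or less in the 3 later libraries. Its fall was 6.78-fold (4.55 to 10.5) at drought 1 h, 31.6-fold (14.3 to 87.1) at drought 24 h and 37.9-fold (16.0 to 118) at cold 72 h.

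A different order was seen in Unigene12559_All (418 bases). It had 181 control reads, 9, 4 and 34 in drought at 1, 24 and 72 h, and 7 and 62 in cold at 1 and 72 h. Here both 1 h libraries and drought 24 h were the low ones, and both 72 h libraries were the highest of the stress libraries. The fall was 41.6-fold (16.0 to 154) at drought 24 h and 25-fold (11.9 to 63.0) at cold 1 h, but 5.29-fold (3.65 to 7.87) at drought 72 h and 2.69-fold (2.00 to 3.65) at cold 72 h. CL2614.Contig3_All (277 bases) had the same order, with 145 control reads, 9, 4 and 20 in drought and 6 and 65 in cold. Its fall was 33.4-fold (12.8 to 124) at drought 24 h and 2.05-fold (1.52 to 2.80) at cold 72 h, the latter not called by the interval.

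Unigene32546_All (1786 bases), the second longest member, had 91 control reads, 13, 2 and 13 in drought at 1, 24 and 72 h, and 17 and 34 in cold at 1 and 72 h. Its lowest library was drought 24 h, where 2 reads gave a ratio of 41.9-fold with a counting interval of 11.3 to 351. Reads covered 75.4% of its length in the control and 5.49% at drought 24 h.

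**Figure D3:**
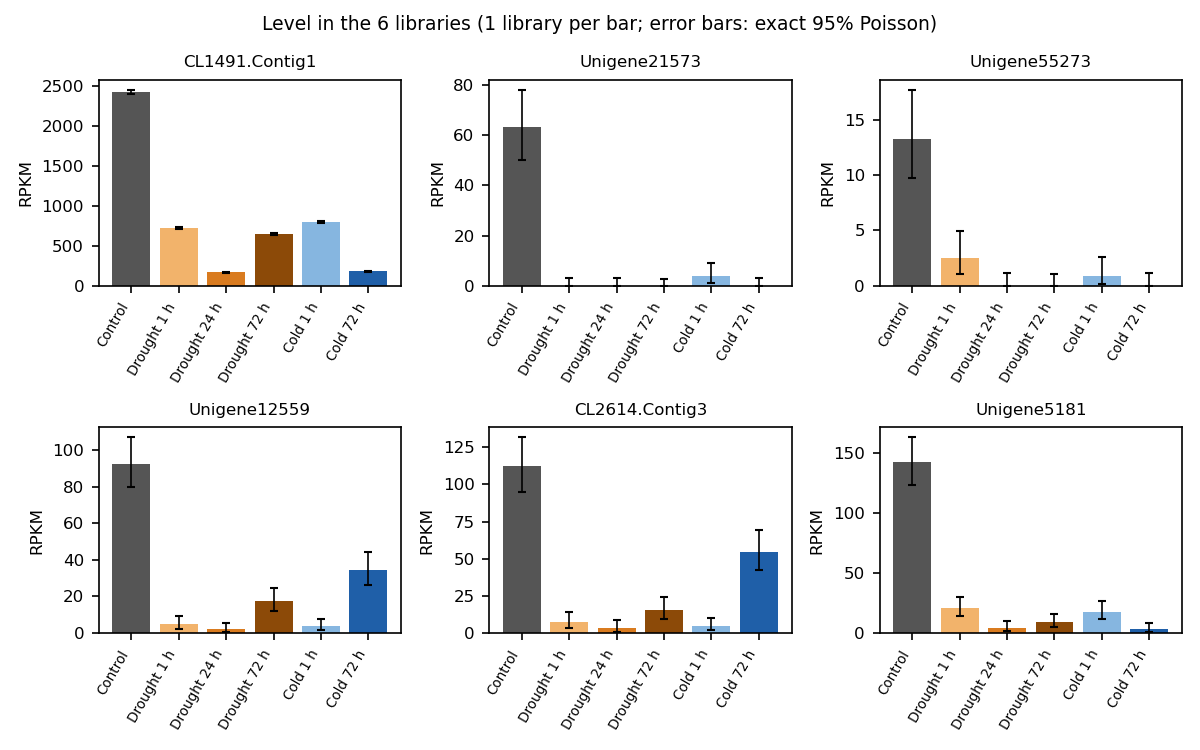
Bars show the level in RPKM of 6 members in the 6 libraries, 1 library per bar, with exact 95% Poisson intervals that cover counting error only. CL1491.Contig1_All and Unigene5181_All are lowest at drought 24 h and cold 72 h, Unigene21573_All and Unigene55273_All have reads in few stress libraries, and Unigene12559_All and CL2614.Contig3_All are higher at both 72 h points than at the earlier ones.

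Comparisons of stress libraries with each other do not involve the control. They do use reads that the rule also read, so they too are descriptions. Of the 58 members, 16 were called in at least 1 of the 10 pairs of stress libraries, a set of pairs chosen after seeing the data. Of the 17074 unigenes 2761 were called, or 16.2%, a smaller share than that of the members. The rule used the reads compared, so nothing is read from the difference. For the other 42 members no pair of stress libraries was called. The highest stress rate was at most 2-fold above the lowest in 15 members, and the median of that ratio was 2.74, with a range of 1.13 to 16.2. This spread is given for the members only, without a value over the 17074 unigenes, so it is not read as a trait of the members. The median reads of the members in the stress libraries were 13.5 to 21.

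Cold was set against drought at the same hour. At 1 h no member was called in either direction, beside 0.146% of unigenes higher and 0.726% lower in cold. The firmest values were those of Unigene8502_All (498 bases), 1.89-fold higher in cold (1.30 to 2.77) with 89 reads against 45, and of Unigene567_All, 2.09-fold lower in cold (1.68 to 2.61). The members' median ratio of cold to drought was 0.984 at 1 h, and that of the 17074 unigenes was 1.02.

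At 72 h, 3 members were called higher in cold than in drought, beside 4.09% of unigenes, and 3 lower, beside 6.42%. With TMM factors 5 members were called higher, beside 5.31%. Unigene608_All (232 bases) was 4.90-fold higher in cold (3.07 to 8.17), with 100 reads against 22. It had 280 control reads, 65 and 125 in drought at 1 and 24 h, and 66 in cold at 1 h, so drought 72 h was its low point. Unigene8502_All was 3.57-fold higher (2.48 to 5.24) at 129 reads against 39, and it had 329 control reads and 112 at drought 24 h. CL2614.Contig3_All was 3.51-fold higher in cold (2.10 to 6.11).

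The members lower in cold at 72 h were CL1491.Contig1_All, Unigene20091_All and Unigene39334_All. CL1491.Contig1_All was 3.57-fold lower in cold than in drought (3.4 to 3.75). Unigene20091_All (614 bases) had 49 control reads, 22, 16 and 23 in drought and 16 in cold at 1 h, and a single read in cold at 72 h. That read gave a ratio of 21.3-fold with a counting interval of 3.46 to 878. The 4 other stress libraries of this member lay between 5.78 and 8.32 RPKM.

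**Figure D4:**
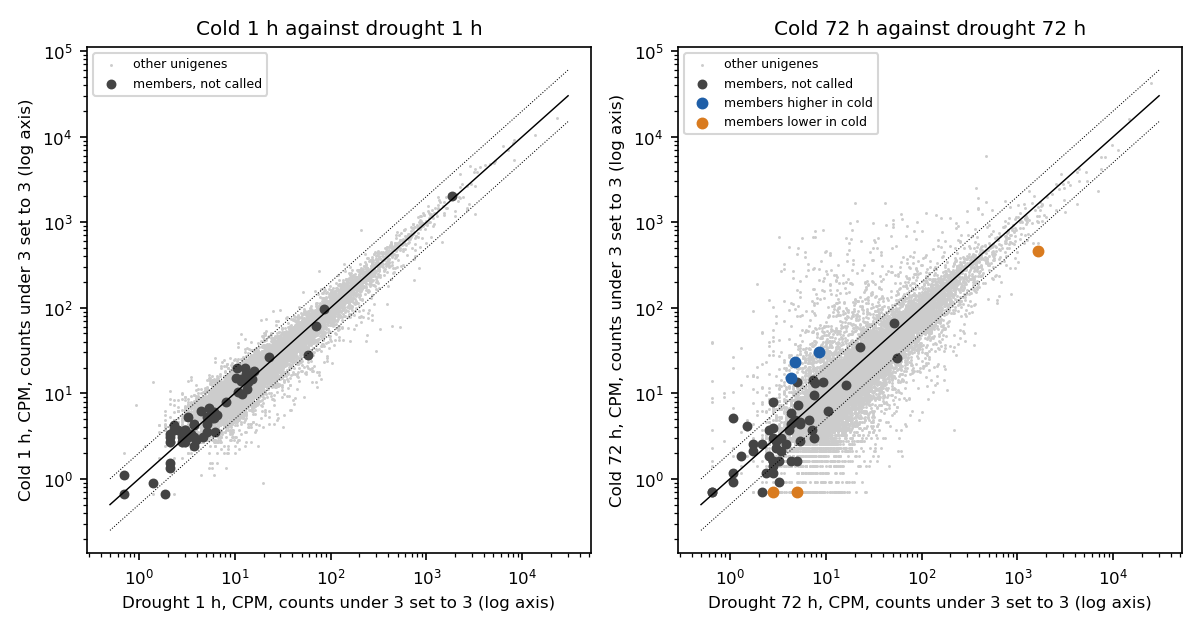
Counts per 1000000 reads (CPM) in cold are plotted against those in drought at 1 h (left) and 72 h (right) on log axes, with counts under 3 set to 3. The solid line marks equal levels and the dotted lines 2-fold. At 1 h no member is called, and at 72 h 3 are called higher in cold (blue) and 3 lower (orange).

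Within drought, the 24 h library was the lowest of the 3 for 31 members, 72 h for 19 and 1 h for 8, where the library total decides between counts under 3. Among the 17074 unigenes these shares were 34.7, 31.3 and 34.0%, against 53.4, 32.8 and 13.8% of the members. Drought 24 h against 1 h had a median ratio of 0.618 over members and 0.980 over those unigenes. The rule used these same reads, so nothing is read from either difference. No member was called higher at 24 h, beside 0.34%, and 3 were called lower, beside 1.01%. They were CL1491.Contig1_All at 4.25-fold (4.04 to 4.47), CL7853.Contig4_All and Unigene16791_All. CL7853.Contig4_All (718 bases) had 92 control reads, 20, 0 and 5 in drought at 1, 24 and 72 h, and 14 and 22 in cold at 1 and 72 h. Unigene16791_All (1065 bases) had 58 reads at drought 1 h and 9 at 24 h, a 6.44-fold difference (3.17 to 14.8), and 33 at 72 h.

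From 24 to 72 h of drought the members moved both ways. The members called higher at 72 h were CL1491.Contig1_All at 3.80-fold (3.61 to 4.0) and Unigene12559_All at 7.88-fold (2.81 to 30.6), 2 members beside 0.258% of unigenes. The members called lower were Unigene608_All at 6.13-fold (3.88 to 10.1) and Unigene8502_All at 3.10-fold (2.13 to 4.58), 2 members beside 0.17%. At 72 h against 1 h no member was called higher, beside 0.217%, and 1 was called lower, beside 1.11%. It was Unigene567_All, with a ratio of 0.277 (0.211 to 0.360). Across all members 44 of 58 had a ratio of 72 h to 1 h under 1, or 75.9%, against 51.9% of the 17074 unigenes. Here too the rule used the reads compared, so nothing is read from the difference.

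Within cold, 46 of 58 members were lower at 72 h than at 1 h, or 79.3%, beside 71.0% of the 17074 unigenes. With TMM factors, a check chosen after seeing the data, these shares were 58.6 and 48.4%. The rule also used these reads, so the shares are a description only. The members called higher at 72 h were CL2614.Contig1_All, CL2614.Contig3_All and Unigene12559_All, 3 members beside 3.7% of unigenes. Their ratios were 18.9 (2.98 to 786, on 1 read at 1 h), 11.4 (4.95 to 32.1) and 9.29 (4.25 to 24.1). The members called lower at 72 h were CL1491.Contig1_All at 4.41-fold (4.2 to 4.63), CL8466.Contig1_All at 5.40-fold (2.90 to 11.0), Unigene20091_All, with 1 read against 16, and Unigene9479_All at 3.14-fold (2.02 to 5.03). These were 4 members beside 5.97% of unigenes, and with TMM factors they were 2, beside 3.28%.

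Of the 58 members, 41 were single unigenes and 17 were contigs of 13 clusters. Contigs of a cluster may share most of their sequence, and a read that matches several of them is not uniquely assigned. The value of 1 contig is therefore uncertain, and sums over clusters are given beside it. In 5 of the 13 clusters, which held 8 of the 17 member contigs, the sum over all contigs was also at most 0.5 of the control in all 5 stress libraries. In the other 8 clusters the sum stood above 0.5 of the control in at least 1 stress library. The sum was still below the control in all 5 libraries in CL514, CL7166, CL7590 and CL8635. In CL514 it was only 1.04-fold to 1.39-fold lower, and in CL7166 1.11-fold to 2.22-fold. No interval is given for these sums, so such small differences are not separated from counting error. In CL8635 it was 1.99-fold to 2.25-fold lower and missed the threshold only at drought 72 h, and in CL7590 it was 1.74-fold to 4.73-fold lower. In CL1772, CL2614, CL6501 and CL7853 it was above the control in at least 1 library.

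In 2 clusters every contig was a member. CL8466.Contig1_All (336 bases) had 146 control reads, 44, 29 and 25 in drought and 68 and 12 in cold. CL8466.Contig2_All (292 bases) had 172 control reads, 50, 27 and 22 in drought and 66 and 21 in cold. Both contigs had the same order of drought libraries, and both were higher at cold 1 h than at cold 72 h. Summed, the cluster stood 3.12-fold below the control at drought 1 h, 5.23-fold at 24 h and 6.72-fold at 72 h, and 2.29-fold and 8.87-fold below it in cold at 1 and 72 h. The other such cluster, CL6563, held CL6563.Contig1_All and CL6563.Contig2_All (281 bases, 103 control reads, 23, 17 and 18 in drought, 30 and 11 in cold), and its sum was 2.36-fold to 4.38-fold below the control. CL5627, described after its values were seen, also held 2 members, and its sum stood 2.29-fold to 5.97-fold below the control. Its other contig had 14 control reads and 0 to 5 in the stress libraries.

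The sum of CL1491 was set by its abundant member. Its 3 other contigs had 93 control reads together, 126, 120 and 117 in drought at 1, 24 and 72 h, and 102 and 21 in cold at 1 and 72 h. Their sum was thus above the control in all drought libraries, at ratios of 1.47, 1.40 and 1.27 in order of time. It was slightly above the control at cold 1 h (ratio 1.14) and below it at cold 72 h. No interval is given for these ratios, so the smaller ones are not separated from counting error. Singly, CL1491.Contig2_All was below the control at drought 24 h (0.745) and CL1491.Contig3_All at cold 1 h (0.888). CL1491.Contig4_All (943 bases) had 4 control reads, then 17, 29 and 20 in drought. These reads were few beside those of CL1491.Contig1_All, and the cluster sum was 3.01-fold to 13.4-fold below the control.

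In CL2614 both short contigs were members and the long one was not. CL2614.Contig1_All (291 bases) had 50 control reads, 2, 0 and 7 in drought and 1 and 18 in cold, an order close to that of CL2614.Contig3_All. CL2614.Contig2_All (1686 bases) had 484 control reads, 707, 510 and 930 in drought and 462 and 955 in cold, and its ratio to the control ran from 0.989 at cold 1 h to 2.14 at cold 72 h. Within 1 cluster, therefore, the short contigs were low in all stress libraries while the long contig was near or above the control. The cluster sum was 679 reads in the control and 1038 at cold 72 h.

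In CL7853 the contigs differed in part. CL7853.Contig3_All (1624 bases) had 142 control reads, 228 at drought 1 h and 41 to 65 in the other stress libraries. It was thus above the control only at drought 1 h, with ratios of 0.291 to 0.497 in the others, where the member was low too. CL7853.Contig1_All (791 bases) had 42 control reads, 73, 82 and 42 in drought at 1, 24 and 72 h, and 33 and 58 in cold at 1 and 72 h. In CL1772 the member CL1772.Contig2_All (228 bases) had 101 control reads and 8 to 26 in the stress libraries. Its partner CL1772.Contig1_All (580 bases) had 299 control reads and 156 to 397. CL7853 and CL1772 were described in detail after their values were seen, apart from CL7853.Contig4_All.

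**Figure D5:**
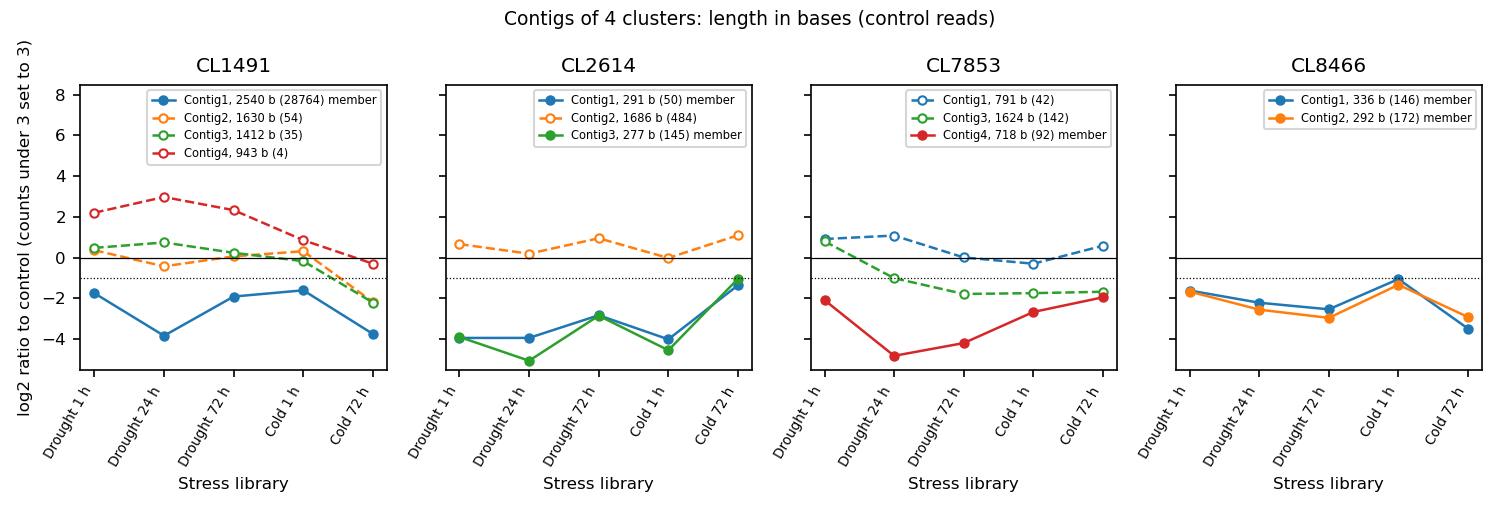
Lines show the log2 ratio to the control of each contig of 4 clusters in the 5 stress libraries, with counts under 3 set to 3, member contigs filled and solid, other contigs open and dashed. The dotted line marks 0.5 of the control. Both contigs of CL8466 fall together, while in CL1491, CL2614 and CL7853 other contigs lie near or above the control in several libraries. CL7853.Contig3_All is above it only at drought 1 h. A contig of CL7853 with at most 1 read in each library is not drawn.

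Length was not used by the rule. The members had a median length of 440.5 bases (quartiles 310.5 and 747.8) and the other 17016 unigenes with at least 30 control reads one of 938 (609 and 1433). Under 500 bases were 32 members, or 55.2%, against 16.7% of the other unigenes. The difference was present at each level of control reads. At 30 to 59 control reads the medians were 440.5 and 651 bases, at 60 to 99 they were 354 and 879, and at 100 or more they were 522 and 1303. Put the other way, 1.11% of the 2879 unigenes under 500 bases were members and 0.183% of the 14195 longer ones. Contigs of clusters made up 29.3% of the members and 31.7% of the other unigenes.

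Reads covered most of the length of a typical member in the control, with a median of 94.1% against 87.9% of the other unigenes. In 4 members the control reads covered under 60%. Besides CL1491.Contig1_All these were CL8635.Contig1_All at 51.8%, CL7556.Contig2_All (1626 bases) at 12.9% and CL6501.Contig3_All (1529 bases) at 8.18%. In CL6501.Contig3_All the covered share was 7.91 to 8.76% in all 6 libraries, while its reads were 48 in the control and 7 to 14 in the stress libraries. Its partner CL6501.Contig1_All (1798 bases) had 387 control reads, 234, 59 and 56 in drought and 160 and 463 in cold.

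The control was not the only library to stand above the 5 others. With the same rule and each library in turn as the reference, 42 unigenes (0.253% of those with at least 30 reads there) passed for drought 1 h and 64 (0.394%) for drought 24 h. For drought 72 h 13 passed (0.0763%), for cold 1 h 22 (0.128%) and for cold 72 h 1546 (10.2%). The 58 members of the control thus lay below the number for drought 24 h and above those for drought 1 h, drought 72 h and cold 1 h. With TMM factors, also chosen after seeing the data, the count was 50 for the control, 35, 68 and 12 for drought at 1, 24 and 72 h, 16 for cold 1 h and 1925 for cold 72 h. By library totals, the unigenes that passed were shorter than the rest for every reference library, with medians of 538 to 829 bases for the 5 stress libraries. These counts are not alike, since the control was set against stressed libraries only. Each stress library was set against the control and the other stress libraries. A fall shared by both stresses and a control library that lay high at these unigenes cannot be told apart.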

How the data were processed

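Per the labels' protocols, leaf RNA was extracted with Trizol and sequenced from TruSeq libraries. For each library the authors deposited a table that gives, per the file headers, every unigene's count of unique reads, its length, the percent of that length under reads, and its RPKM. The submitters' processing notes name Bowtie 0.12.2. The sources used here do not give the assembly, its filters or the use of strand. Counts summed to the total in each header, and absence from a table was read as 0. Libraries were grouped by the treatment and time that the labels state. Triplicates are mentioned in the design text, but each group analysed here holds 1 library. PCR copies cannot be told from other reads, so intervals cover counting error only.

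Rates were counts over these totals, and intervals of ratios were exact (Clopper-Pearson, 1 count of the sum of 2). The rule and the intervals were tested on simulated counts that held counting error only. Variation between plants or libraries was not part of that test, so it says nothing on such variation. Background shares are over the 17074 unigenes with at least 30 control reads. The members, the lists and the settings were chosen with earlier results of these data known. By rule, the text names the 2 members with the firmest interval against the control in each stress library. It also names the 1 firmest per direction in 4 comparisons of stress libraries, the 2 of highest control RPKM and the 2 longest. Members of 3 of the 4 clusters with 2 members are named, with ties broken by control reads. So are 2 unigenes on each side of the threshold. All others were named after their values were seen.

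Other settings were scaling by TMM and upper-quartile factors from edgeR 4.0.16, by median-of-ratios factors from DESeq2 1.42.0 and by totals without the 100 most abundant unigenes, other minimums, floors, folds and intervals, 4 of 5 libraries, a minimum length of 500 bases, and sums by cluster. The software was R 4.3.3 and Python 3.11.15 with scipy 1.17.1, pandas 2.3.3, numpy 2.4.6 and matplotlib 3.10.9.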

Additional observations from a re-analysis of the deposited data

How the results depend on the processing

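The number of members was 289, 186, 32 and 23 with at least 1, 10, 60 and 100 control reads, and 216, 10 and 4 with a fall of at least 1.5-, 3- and 4-fold. It was 13 with the whole interval beyond 2-fold and 470 with the interval only required to lie below 1. Unigenes of at least 500 bases gave 26, and the rule without drought 1 h gave 124. Leaving out another stress library gave 64 to 86. The count was 50 with TMM, 57 with upper-quartile, 49 with median-of-ratios factors and 63 without the 100 most abundant unigenes, of which 48, 53, 47 and 58 are among the 58. Sums by cluster gave 47, no floor 58 and 0.5 added to each count 57.

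With an interval of 0.1% error in place of 5%, 15 members were called lower at drought 1 h (0.193% of the 17074 unigenes), 24 at cold 72 h (3.64%) and 4 in all 5 (0.0234%). Between stress libraries that interval called 1 member higher (3.26%) and 1 lower (3.47%) in cold than in drought at 72 h, 1 higher (0.117%) and 1 lower (0.0937%) at drought 72 h than at 24 h, and 2 lower at cold 72 h than at 1 h (3.07%). TMM and median-of-ratios factors each called 5 members higher in cold than in drought at 72 h, beside 5.31 and 5.53% of unigenes. These and upper-quartile factors each called 2 lower at cold 72 h than at 1 h, beside 3.28, 3.13 and 3.84%. The causes were not tested.

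The share of reads of members chosen by TMM factors was 0.755% for the control, 0.230, 0.0743 and 0.194% for drought at 1, 24 and 72 h, and 0.248 and 0.0740% for cold at 1 and 72 h. With median-of-ratios factors it was 0.753, 0.230, 0.0743, 0.193, 0.248 and 0.0732%, in the same order. With upper-quartile factors it was 0.0819% at cold 72 h. Without CL1491.Contig1_All, chosen after seeing the data, it was 0.166, 0.0537, 0.0391, 0.0356, 0.0540 and 0.0399%. Of 380 ratios of 19 named members under other scalings, 368 stayed within their interval. The 8 contigs whose cluster sum passed became 7 to 9.

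No paired analysis was possible because each group holds 1 library. With the floor of 3 reads, a member with 30 control reads shows a fall of at most about 10-fold.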
